A study of Mus musculus with 16 samples.

Results

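The transcripts encoded by the mitochondrial genome were examined in single LSK cells, the bone marrow fraction that lacks lineage markers and carries Sca1 and Kit and in which blood stem cells and the earliest progenitors are found. The members were the gene entries whose symbol begins with mt-, 37 of the 52542 gene entries other than spike-ins. They comprised 2 rRNAs, 13 mRNAs and 22 tRNAs. At least 1 UMI, the molecular tag that marks 1 captured transcript, was found for 28 of them in the kept cells. The other 9 were listed at 0.

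The cells came from lethally irradiated CD45.1/CD45.2 mice of strain C57BL/6J. At 4 weeks before sorting these had received an equal mixture of CD45.2 fetal liver cells that lacked Regnase-1 and Regnase-3 and CD45.1 control fetal liver cells. Cells of both origins are in 1 labelled group of 16 libraries, named here LSK library 1 to 16. No label gives the genotype of a well or library, so no knockout was compared with control. MARS-seq, a plate method that tags the 3′ ends of polyadenylated RNA with UMIs, was used throughout. A well was kept when it was not listed as empty, held at least 500 UMIs and had under 20% of them in mt- entries, which left 5157 of 6144 wells.

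Both strands of the mitochondrial genome are transcribed into long precursors, which are cut mostly at the tRNAs that lie between the rRNA and mRNA genes. The products are 2 rRNAs of the mitochondrial ribosome, mRNAs for core subunits of respiratory complexes I, III and IV and of ATP synthase, and the tRNAs that read them. Several of these mRNAs end in an incomplete stop codon that the poly(A) tail completes, and all other proteins of the organelle come from nuclear genes. Blood stem cells are known for their low reliance on respiration compared with committed progenitors.

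The 3′ ends are what a 3′ tag method reads, so the last 30 bases of the 2 rRNAs and 6 of the mRNAs are shown, from GENCODE M21 transcripts on GRCm38, all on the plus strand of MT. Capitals mark the stop codon of the annotated transcript or the single T that stands in its place.
mt-Rnr1: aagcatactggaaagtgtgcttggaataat
mt-Rnr2: atacgtacaccctctaacctagagaaggtt
mt-Nd1: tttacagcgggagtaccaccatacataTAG
mt-Nd2: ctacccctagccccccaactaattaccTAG
mt-Nd4: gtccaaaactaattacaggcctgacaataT
mt-Cytb: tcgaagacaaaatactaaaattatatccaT
mt-Co1: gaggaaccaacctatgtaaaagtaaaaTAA
mt-Co3: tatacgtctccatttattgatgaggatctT
The end of mt-Cytb at MT position 15288 touches the start of mt-Tt at 15289, and the end of mt-Rnr2 at 2675 touches the start of mt-Tl1 at 2676. The end of mt-Nd1 at 3707 lies past the start of mt-Ti at 3706. The 3 tRNAs with the most UMIs each follow one of these genes, and their whole annotated sequences are shown for that reason, with no capitals. The sources used here do not say how tags at these borders were assigned.
mt-Tl1: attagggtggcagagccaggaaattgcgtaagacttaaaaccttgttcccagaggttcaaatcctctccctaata
mt-Ti: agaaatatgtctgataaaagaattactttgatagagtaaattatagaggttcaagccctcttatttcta
mt-Tt: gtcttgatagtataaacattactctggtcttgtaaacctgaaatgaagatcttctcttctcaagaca

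Together the mt- entries held 1098812 of 10437310 UMIs in kept cells, 10.5%. The rRNAs took 72.1% of the mt- UMIs, the mRNAs 25.8% and the tRNAs 2.09%. Over the 16 libraries the mt- share of UMIs was lowest at 9.43% in library 10, had a median of 10.3% and was highest at 12.1% in library 15. The libraries were alike in this total but not in its make-up. The mt- rRNA share had a lowest value of 5.29% in library 10, a median of 7.52% and a highest of 9.49% in library 15. The mt- mRNA share was lowest at 2.14% in library 16, had a median of 2.61% and was highest at 3.85% in library 10. The ratio of rRNA to mRNA UMIs therefore ranged from 1.37 in library 10 to 4.25 in library 16, with a median of 2.84 (SD 0.74, n = 16). The 9 libraries of sequencing batch SB341 had ratios of 1.37 to 3.53 and the 6 of SB343 had ratios of 2.65 to 4.25, so the batches overlapped. Whether libraries are separate mice is not given, and the spread between them may be technical.

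**Figure D1:**
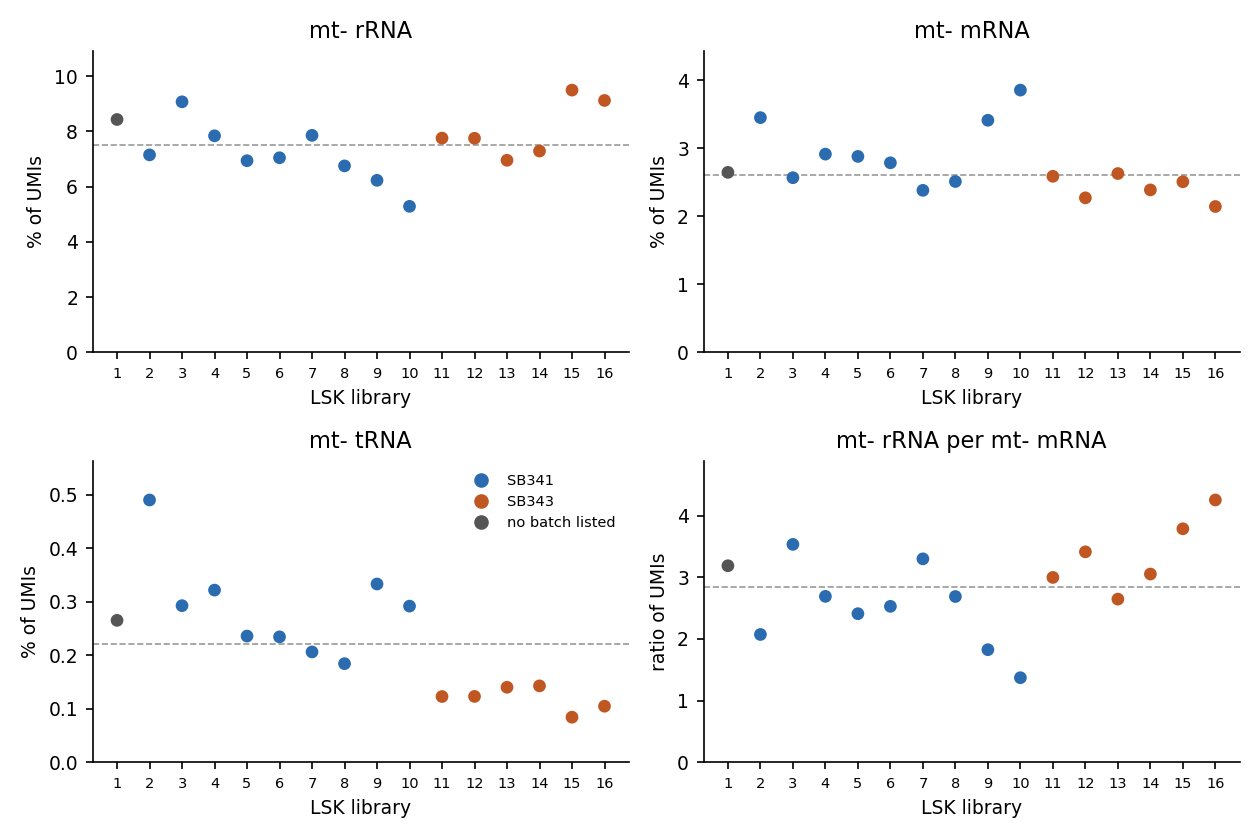
Share of UMIs in mt- rRNA, mRNA and tRNA entries (% of all UMIs of kept cells) and the ratio of mt- rRNA to mt- mRNA UMIs, by LSK library, with 1 point per library coloured by sequencing batch and the median of 16 as a dashed line. The rRNA per mRNA ratio runs from 1.37 to 4.25, and all 6 SB343 libraries lie below all 9 SB341 libraries in tRNA share.

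Depth per library was 521435 to 822534 UMIs, with 295 to 345 kept cells and a median of 1146 to 1993 UMIs per kept cell. Kit, Ly6a (which encodes Sca1), Cd34 and Ptprc were found in every library, at medians of 179, 228, 602 and 101 CPM (UMIs scaled to a fixed total per library). Summed markers of mature neutrophils and macrophages had a median of 16.3 CPM over libraries, those of B cells 0, of T and NK cells 2.90, of red cells 6.31 and of endothelial and stromal cells 2.51 CPM. No wells were shared between libraries. Each of the 120 library pairs differed in gene counts by more than sampling noise, with a chi-square of 1.59 to 10.1 for each degree of freedom.

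The 2 rRNAs, which form the small and the large subunit of the mitochondrial ribosome, were the most abundant members. mt-Rnr2, the large-subunit rRNA of 1582 bases at MT 1094 to 2675, had a lowest level of 37001 CPM in library 10, a median of 48456 CPM and a highest of 62082 CPM in library 3. mt-Rnr1, the small-subunit rRNA of 955 bases at MT 70 to 1024, had a lowest level of 15876 CPM in library 10, a median of 27328 CPM and a highest of 35473 CPM in library 15. mt-Rnr2 had more UMIs than mt-Rnr1 in 16 of 16 libraries, by 1.60 to 2.33 times. Per length the medians came to 30630 CPM per kb for mt-Rnr2 and 28615 CPM per kb for mt-Rnr1, with mt-Rnr2 higher in 12 of 16 libraries. A method that tags 3′ ends counts a captured transcript once whatever its length. Values per length, here and below, are therefore a description and not a correction, and CPM gives the order of captured transcripts. Library 10 was lowest for both rRNAs and highest for 9 of the 12 mRNAs with a UMI.

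Among the mRNAs, complex I subunits and mt-Cytb, the only complex III subunit encoded here, held most UMIs. mt-Cytb was lowest at 5772 CPM in library 16, had a median of 7420 CPM and was highest at 10574 CPM in library 10. mt-Nd1 ranged from 5192 to 9481 CPM with a median of 6014 CPM, and mt-Nd4 from 4288 to 8880 CPM with a median of 5885 CPM. mt-Nd1 was above mt-Nd4 in 15 of 16 libraries, a narrow margin set against their ranges. mt-Nd2 ranged from 2408 to 4375 CPM with a median of 3003 CPM, and mt-Nd5 from 1449 to 2107 CPM with a median of 1619 CPM. Per length the order of medians was mt-Cytb at 6486, mt-Nd1 at 6284, mt-Nd4 at 4271 and mt-Nd2 at 2893 CPM per kb. The first 2 had no steady order per length, with mt-Cytb above mt-Nd1 in 7 and below it in 9 of 16 libraries.

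The proportions among the 4 leading mRNAs varied less than their levels. mt-Cytb made up 26.9% to 30.2% of the mt- mRNA UMIs of a library, mt-Nd1 21.1% to 24.6%, mt-Nd4 at most 23.2% with a median of 22.2%, and mt-Nd2 10.2% to 12.7%. The shares of mt-Nd5, 5.16% to 7.82%, and of mt-Co1, 4.94% to 8.13%, varied about as much as their levels. The libraries high in mt- mRNA were high in these 4 together.

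As counted under their mt- entries, the cytochrome c oxidase and ATP synthase mRNAs were lower than these 4. Nuclear gene models described below repeat the sequence of mt-Co1 and mt-Co3. With them added, the medians were 3109 CPM for mt-Co1, against 3003 CPM for mt-Nd2, and 1354 CPM for mt-Co3. The values that follow leave them out. mt-Co1, the catalytic subunit of complex IV, ranged from 1391 to 2069 CPM with a median of 1703 CPM, and stood above mt-Nd5 in 8 of 16 libraries and below it in 8. mt-Co2 had a lowest level of 181, a median of 274 and a highest of 553 CPM. mt-Co3 had a lowest level of 67.9, a median of 99.7 and a highest of 210 CPM. mt-Atp6 had a lowest level of 134, a median of 314 and a highest of 496 CPM, and was above mt-Co2 in 7 of 16 libraries and below it in 8. mt-Atp6 was at 282 to 496 CPM in the 9 SB341 libraries and at 134 to 219 CPM in the 6 SB343 libraries. Per length the medians were 1102 CPM per kb for mt-Co1, 888 for mt-Nd5, 462 for mt-Atp6, 401 for mt-Co2 and 127 for mt-Co3.

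The shortest mRNAs and the only light-strand mRNA were rare or absent. mt-Nd3 had 161 UMIs over all kept cells, mt-Nd4l 58 and mt-Atp8 23. mt-Nd4l and mt-Atp8 lie upstream of mt-Nd4 and mt-Atp6 and overlap them, and are known to be carried on shared transcripts with them. The libraries held at most 4.71 UMIs of mt-Atp8 for every 100 of mt-Atp6. They held at most 0.213 UMIs of mt-Nd4l for every 100 of mt-Nd4. mt-Nd6, the complex I subunit encoded on the other strand, was listed at 0 in all 16 libraries. With 0 of 5157 cells, a count of 0 allows a share of cells with a UMI of up to 0.0582%, for counting error only.

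**Figure D2:**
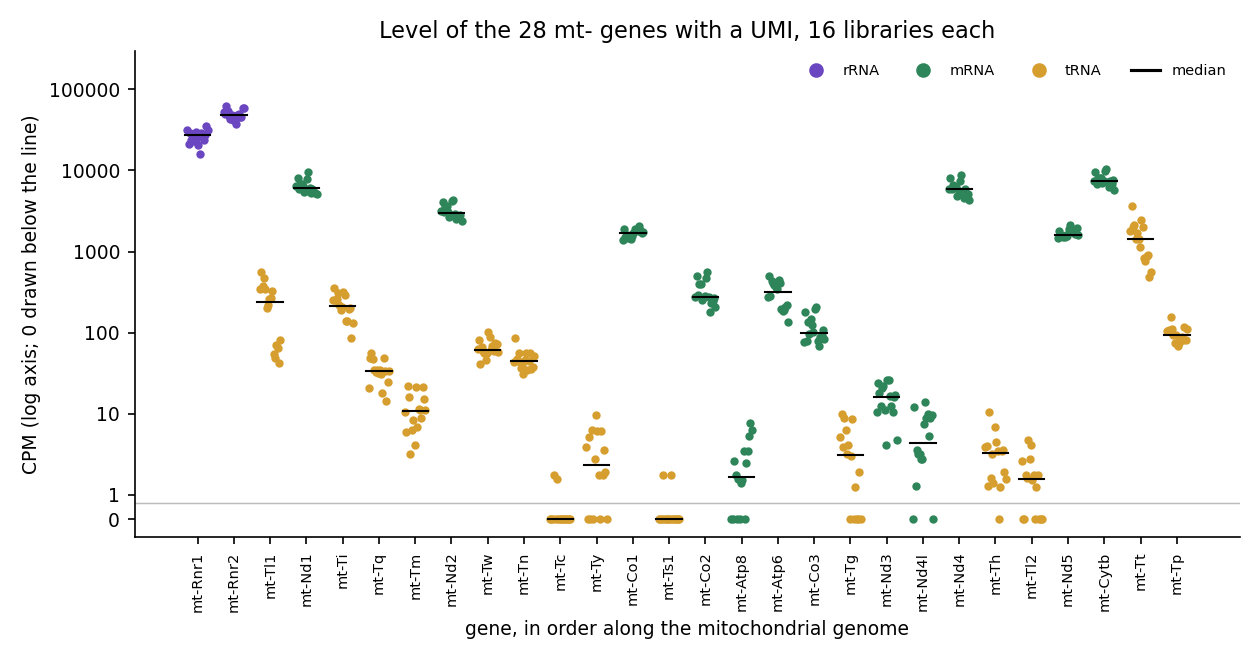
Level in CPM (log axis, with values of 0 drawn below the grey line) of the 28 mt- genes that had a UMI, in their order along the mitochondrial genome, with 16 library points and a black median bar per gene. Medians run from 0 for mt-Tc and mt-Ts1 to 48456 CPM for mt-Rnr2.

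Levels of mt-Co3 and mt-Co1 are uncertain because nuclear gene models repeat their sequence. Gm28437, a gene model on chromosome 1 (24613189 to 24613971, minus strand, GRCm38), matched mt-Co3 over 783 bases with 0 mismatches. It was counted at 326 CPM in the lowest library, a median of 1188 CPM and 6837 CPM in the highest, above mt-Co3 in 16 of 16 libraries. Gm29216, on the same chromosome at 24615706 to 24616197, matched the last 483 bases of mt-Co1 with 1 mismatch. It was counted at 1093 to 2486 CPM, above mt-Co1 in 7 and below it in 9 of 16 libraries. With the 2 entries of a pair added up, mt-Co3 and Gm28437 reached 394 to 7019 CPM, and mt-Co1 and Gm29216 reached 2580 to 4391 CPM. Other models that repeat part or all of an mt- gene with no mismatch, Gm10222 for mt-Nd4l, Gm10925 for mt-Atp6, Gm28439 for mt-Nd4 and Gm28661 for mt-Co2, were all listed at 0. Models with mismatches also held UMIs. Gm13341 matched mt-Co2 over 684 bases at 95.9% identity, with a median of 89.2 CPM beside 274 CPM for mt-Co2. Gm13339 matched mt-Nd2 over 510 bases at 96.7% identity, with a median of 153 CPM. The sources used here do not say how reads that match both places were counted, so the split within a pair cannot be read as expression of either. With Gm28437 and Gm29216 counted among the mRNAs, the rRNA to mRNA ratio of a library was 1.25 to 3.96, with a median of 2.55.

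Gm28437 moved with the sequencing batch, at 788 to 6837 CPM in SB341 libraries and 326 to 605 CPM in SB343 libraries. mt-Co3 itself was at 67.9 to 210 CPM over all libraries. Gm11410, which matched mt-Cytb over 1142 bases at 92.9% identity, also separated the batches, at 37.8 to 854 CPM in SB341 libraries and 1.77 to 33.3 CPM in SB343 libraries. So did Gm13341, at 80.1 to 190 CPM in SB341 libraries and 32.4 to 56.1 CPM in SB343 libraries.

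**Figure D3:**
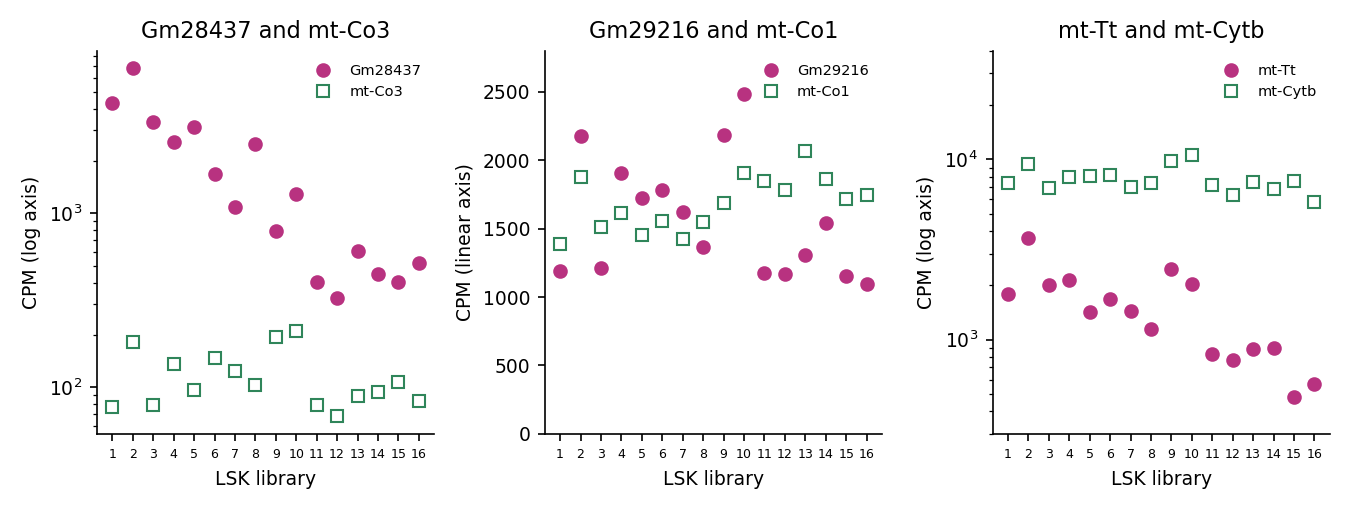
Level in CPM by LSK library for Gm28437 and mt-Co3 (log axis), Gm29216 and mt-Co1 (linear axis from 0) and mt-Tt and mt-Cytb (log axis), with 1 point per library. Gm28437 lies above mt-Co3 in 16 of 16 libraries, Gm29216 above mt-Co1 in 7, and mt-Tt lies lowest in library 15 at 479 CPM.

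The summed tRNA share separated the sequencing batches, while 12 of the 14 tRNAs with a UMI had overlapping batch ranges. The summed share of UMIs was 0.184% to 0.490% in the 9 SB341 libraries and 0.0843% to 0.143% in the 6 SB343 libraries, with no overlap. mt-Tt, the tRNA for threonine of 67 bases, took 67.5% of all tRNA UMIs. It ranged from 1139 to 3645 CPM in SB341 libraries and from 479 to 895 CPM in SB343 libraries. mt-Tl1, a tRNA for leucine of 75 bases, ranged from 203 to 562 CPM in SB341 libraries and from 42.0 to 80.6 CPM in SB343 libraries. These 2 tRNAs and mt-Atp6 were the 3 members with a UMI, of 28, whose batch ranges did not overlap. The share of all genes with batch ranges apart is not given here, so this count has no background beside it. What differed between the batches besides the sequencing run named in the well table is not given, so batch and library content cannot be told apart.

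Read against the gene upstream, mt-Tt had 6.32 UMIs for every 100 of mt-Cytb in library 15 and 38.5 in library 2, with a median of 18.4. mt-Tl1 had 0.0706 to 1.12 UMIs for every 100 of mt-Rnr2. mt-Ti, the tRNA for isoleucine, had 1.63 to 4.59 for every 100 of mt-Nd1, and mt-Tw, the tRNA for tryptophan, 1.34 to 2.85 for every 100 of mt-Nd2. Library 15 was lowest in the first 3 of these ratios. mt-Ti was at 85.9 to 354 CPM and mt-Tw at 41.3 to 101 CPM. mt-Tp, the tRNA for proline on the minus strand, was at 68.0 to 154 CPM. Of the other 17 tRNAs, 8 were listed at 0 (mt-Tf, mt-Tv, mt-Ta, mt-Td, mt-Tk, mt-Tr, mt-Ts2 and mt-Te), and the other 9 had 2 to 477 UMIs over all kept cells. mt-Tf and mt-Tv flank mt-Rnr1, so the rRNA with 278001 UMIs had neighbours with none.

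From cell to cell the mt- share had a 5th percentile of 6.56%, a median of 10.8% and a 95th percentile of 16.6%, and a kept cell held a median of 169 mt- UMIs. The variance of the mt- share between cells of a library was 11.8 to 20.3 times the binomial variance. That of the rRNA part of the mt- UMIs was 5.37 to 15.2 times it. Among the 4068 cells with at least 100 mt- UMIs, the ratio of rRNA to mRNA had a median of 2.96 and a 5th to 95th percentile range of 1.01 to 6.54.

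Both measures moved with depth. Cells with 2000 or more UMIs had a lower mt- share than cells under 1000 UMIs in 16 of 16 libraries, with a median difference of -1.66 percentage points. Their rRNA to mRNA ratio was higher in 14 of 16 libraries, by a median of 0.68. Cells of 4000 or more UMIs had a median rRNA share of 7.29% and mRNA share of 2.25%. Cells under 1000 UMIs had 7.84% rRNA and 3.46% mRNA, so the mRNA share differed more than the rRNA share.

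To ask how the mt- transcripts differ along the first steps of blood lineage choice, cells were placed in gates by their UMIs of marker genes. A cell entered a gate with at least 2 UMIs of its list and at least 2 times the UMIs of any other list. The granule list held Mpo, Ctsg, Prtn3, Elane, Ms4a3 and Fcnb, which encode granule proteins and other markers of the myeloid branch. The lymphoid list held 11 genes with Dntt and Flt3 among them, the megakaryocyte/erythroid list 13 with Pf4, Car1 and Gata1, and the stem list 9 with Mecom, Hlf and Procr. This placed 1064 cells in the granule gate, 912 in the lymphoid, 536 in the megakaryocyte/erythroid and 326 in the stem gate, while 2319 cells entered none. Sums over the cells of a gate were compared within libraries. This used the 14 libraries with at least 10 stem-gated cells, and left out libraries 14 and 16. The cells were placed in gates by their own expression, so the p-values below are too small by an unknown amount. The 3 comparisons share their stem-gated cells.

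The gates differed in depth. The median of UMIs per cell over libraries was 2307 in granule-gated, 1722 in lymphoid-gated and 2033 in megakaryocyte/erythroid-gated cells, against 1523 in stem-gated cells. mt- UMIs per cell had medians of 280, 230 and 243 in these gates, against 195 in stem-gated cells. All other UMIs per cell had medians of 2446, 1959 and 2245, against 1535. A lower mt- share therefore stood beside more mt- UMIs per cell, and less mitochondrial RNA and more of other RNA cannot be told apart from shares.

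Granule-gated cells held less mt- rRNA for their mt- mRNA than stem-gated cells. The ratio of rRNA to mRNA UMIs was lowest at 1.24, had a median of 2.71 and was highest at 3.53 in granule-gated cells, against 1.89, 2.99 and 4.27 in stem-gated cells. It was lower in 13 of 14 libraries, with a median difference of -0.41 (SD of the differences 0.30). The ranges overlapped, and the difference lies within libraries. The rRNA share of UMIs was 4.79% to 9.31% with a median of 7.35%, against 6.56% to 9.86% with a median of 8.21%, and was lower in 13 of 14. The mRNA share was 2.32% to 3.86% with a median of 2.73%, against 2.16% to 3.48% with a median of 2.59%, and was higher in 12 of 14. The ratio was lower in 8 of 9 pairs of batch SB341 and in 4 of 4 of SB343. The whole mt- share had a median of 10.3% against 10.9% and was lower in 12 of 14. That last order turned with the cell filter: with a mt- maximum of 15% in place of 20%, the granule-gated share was higher in 8 of 14 libraries, with a median difference of 0.17 percentage points. Over all 16 libraries, summed markers of mature neutrophils and macrophages had medians of 18.9 CPM in granule-gated and 22.1 CPM in stem-gated cells. Ltf and Ngp were at 0 in both, and the part of these markers in the result was not tested.

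In the fit across all genes, 13 of the 37 members had enough counts in the granule-gated and stem-gated sums to be tested, 2 rRNAs, 8 mRNAs and 3 tRNAs. Of these, 1 was higher and 2 were lower at an adjusted p under 0.05, where 9.80% of the 1031 genes tested passed in either direction, 3.30% higher and 6.50% lower. mt-Rnr2 was at 33801, 46658 and 63036 CPM in granule-gated cells (lowest, median and highest of 14 libraries), against 42349, 54196 and 67784 in stem-gated cells. It was lower in 12 of 14 libraries, with a log2 fold change of -0.31 ± 0.05 (SE, adjusted p = 2.34e-06, edgeR). mt-Nd1 was at 5425, 6773 and 9565 CPM in granule-gated cells, against 4540, 5662 and 8437 CPM in stem-gated cells. It was higher in 14 of 14 libraries, with a log2 fold change of 0.15 ± 0.04 (adjusted p = 0.0253, and 0.0519 without library 8). mt-Rnr1 had a log2 fold change of -0.19 ± 0.05 (adjusted p = 0.0106), but its plain CPM was lower in only 8 of 14 libraries, and the call did not hold without TMM scaling (-0.07, adjusted p = 0.37) or without library 7 (-0.15, adjusted p = 0.0541). With the library block left out, mt-Rnr2 kept its call (-0.31, adjusted p = 0.0338), while mt-Nd1 (0.14, adjusted p = 0.43) and mt-Rnr1 (-0.18, adjusted p = 0.41) did not. Within the 4 pairs of batch SB343, mt-Rnr2 had -0.14 (adjusted p = 0.57). Within the 9 pairs of SB341, mt-Nd1 had 0.16 (adjusted p = 0.071) and mt-Rnr1 -0.17 (adjusted p = 0.14). The tests not passed ranged from -0.22 ± 0.14 for mt-Atp6 to 0.44 ± 0.18 for mt-Ti. Of the 8 mRNAs tested, 2 were above 0 and 6 below, where the median of all genes tested was -0.04. Those below held mt-Nd5 (-0.15 ± 0.06, adjusted p = 0.14), mt-Co1 (-0.14 ± 0.06, adjusted p = 0.19) and mt-Nd4 (-0.10 ± 0.05, adjusted p = 0.20). Fold changes include TMM scaling, which the shares of UMIs do not.

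The sign of the rRNA values turned with TMM factors taken from unfiltered genes. With the filter kept, granule-gated mt-Rnr2 had -0.19 without TMM factors, -0.28 scaled by genes other than mt- and -0.29 with DESeq2. mt-Rnr1 had -0.07, -0.16 and -0.17 in these fits. With no filter on low counts, the TMM factors moved the median of the same 1031 genes to 0.47 on the log2 scale, against -0.04 with the filter. There mt-Rnr2 had 0.21 and mt-Rnr1 0.33, which turned both signs, while both stayed below the median of these genes, at -0.26 and -0.14 relative to it. With the filter they were at -0.27 and -0.15 relative to it. With no filter but TMM factors from the filtered genes, mt-Rnr2 had -0.31 again. The distance between mt-Rnr2 and mt-Nd1, which no scaling can move, was -0.45 in both fits.

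Lymphoid-gated cells had less mt- rRNA as a share of all UMIs than stem-gated cells, with the mRNA share near that of stem-gated cells. The rRNA to mRNA ratio was 1.37, 2.97 and 4.14 (lowest, median and highest) in lymphoid-gated cells, against 1.89, 2.99 and 4.27 in stem-gated cells, and was lower in 9 of 14 libraries, with a median difference of -0.38 (SD 0.31). With Gm28437 and Gm29216 counted among the mRNAs it was lower in 11 of 14, with a median difference of -0.32 (SD 0.26). Counted so, the granule- and megakaryocyte/erythroid-gated ratios were each lower in 13 of 14. The rRNA share was lower in 11 of 14 libraries, with medians of 7.34% and 8.21%. It was lower in 8 of the 9 pairs of batch SB341, with a median difference of -0.93 percentage points, but in only 2 of the 4 pairs of SB343, with -0.07. The whole mt- share was lower in 9 of 14 libraries, with medians of 10.2% and 10.9% and a median difference of -0.56 percentage points. That difference was -0.35 on leaving out library 1, 2, 3, 5, 7, 10 or 13 and -0.76 on leaving out any other library. Within SB341 the mt- share was lower in 7 of 9 pairs, and within SB343 it was higher in 3 of 4. The mRNA share had medians of 2.59% in both gates and was higher in 7 of 14. The ratio without the nuclear models was lower in 6 of the 9 pairs of batch SB341 and in 2 of the 4 pairs of SB343. Over all 16 libraries, summed markers of mature B cells were at a median of 0 CPM in both gates. Ms4a1 and Cd22 were at 0, and the part of these markers in the result was not tested.

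Of the same 13 members tested in lymphoid-gated and stem-gated cells, 0 were higher and 2 were lower, where 6.70% of 941 genes passed in either direction, 2.55% higher and 4.14% lower. At an unadjusted p under 0.05, mt-Tl1 was the 1 member higher, at 0.40 ± 0.18 (adjusted p = 0.21), and DESeq2 called 0 higher. mt-Rnr2 was at 36435, 47088 and 63925 CPM in lymphoid-gated cells, against 42349, 54196 and 67784 in stem-gated cells. It was lower in 11 of 14 libraries, with a log2 fold change of -0.21 ± 0.05 (adjusted p = 0.0020, edgeR), which with no filter on low counts became 0.21, where the median of the tested genes was at 0.41. mt-Rnr1 had -0.15 ± 0.05 (adjusted p = 0.0447) with the filter and 0.27 without it. The mt-Rnr1 call was lost on leaving out library 2, 3, 5, 6, 7, 10 or 13, each on its own. mt-Rnr2 did not pass with the library block left out (-0.21, adjusted p = 0.31), with a mt- maximum of 15% (-0.16, adjusted p = 0.0595) or within SB343 (-0.12, adjusted p = 0.68). The 8 mRNAs lay between -0.22 ± 0.14 for mt-Atp6 and 0.06 ± 0.06 for mt-Nd2, and none passed.

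Megakaryocyte/erythroid-gated cells had a lower mt- share than stem-gated cells, and the lowest median of the 4 gates, although another gate was lower in libraries 1, 2, 3, 6 and 7. The share was 8.14%, 9.58% and 11.5% (lowest, median and highest) in these cells, against 9.11%, 10.9% and 12.7% in stem-gated cells. It was lower in 13 of 14 libraries, with a median difference of -1.26 percentage points (SD 0.74). The rRNA share was lower in 14 of 14 libraries, with medians of 6.78% and 8.21%. The mRNA share was lower in 8 and higher in 6, with medians of 2.58% and 2.59%. The rRNA to mRNA ratio was 1.05, 2.61 and 3.75, against 1.89, 2.99 and 4.27 in stem-gated cells, and was lower in 13 of 14. Within batches it was lower in 8 of 9 pairs of SB341 and 4 of 4 of SB343. Over all 16 libraries, summed markers of red cells had a median of 6.61 CPM in these cells and reached 1133 CPM in 1 library. In stem-gated cells their median was 0 CPM. Their highest value there, 223 CPM, was in library 14, which held 4 stem-gated cells and was left out of the comparison. Alas2 of that list was at 0 in both gates. The part of that list in the result was not tested.

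**Figure D4:**
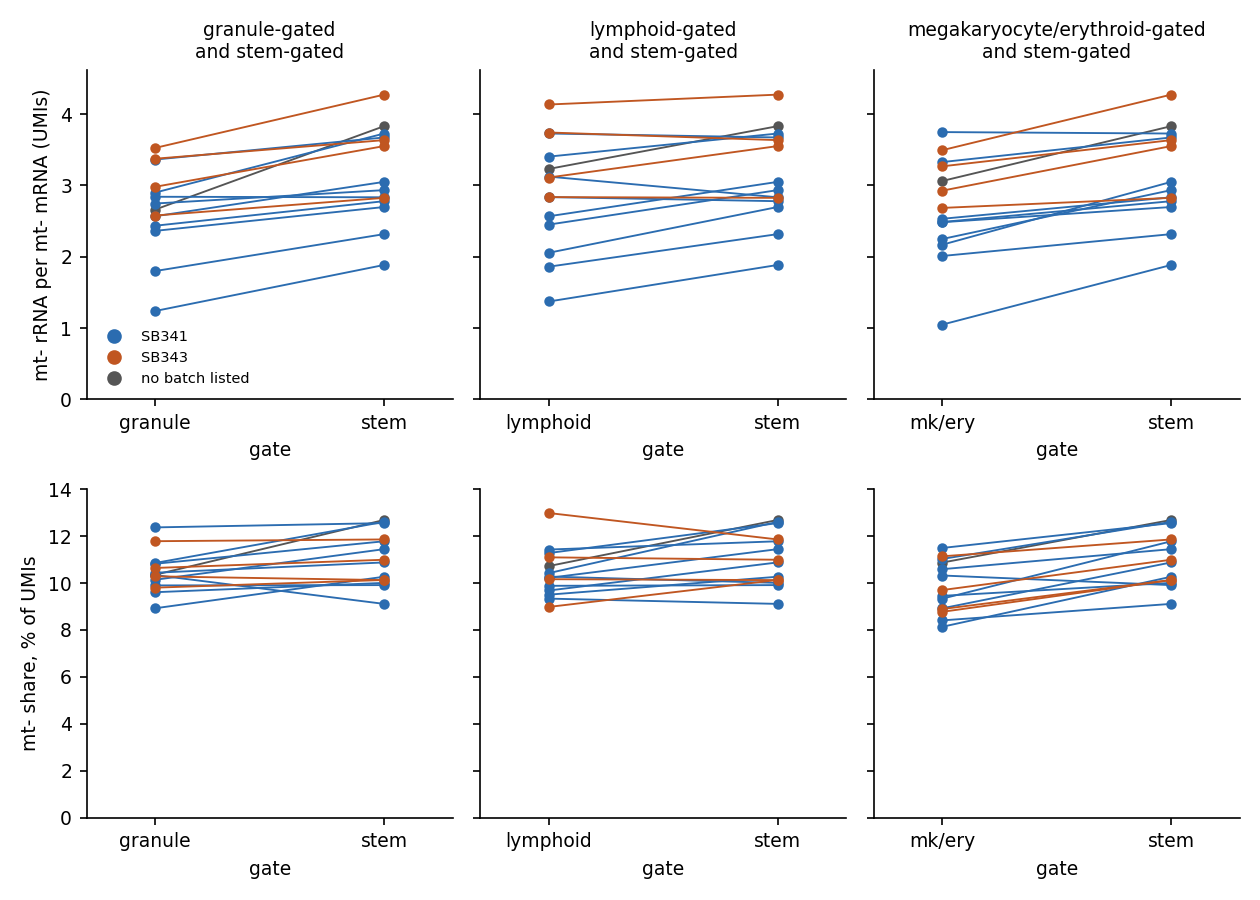
Ratio of mt- rRNA to mt- mRNA UMIs (upper row) and mt- share in % of UMIs (lower row) in granule-, lymphoid- and megakaryocyte/erythroid-gated cells and in the stem-gated cells of the same library, with 14 libraries joined by lines and coloured by sequencing batch. The ratio is lower than in stem-gated cells in 13, 9 and 13 of 14 libraries.

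Of 13 members tested in megakaryocyte/erythroid-gated and stem-gated cells, 0 were higher and 3 were lower, where 15.1% of 689 genes passed in either direction, 42 genes or 6.10% higher and 62 genes lower. At an unadjusted p under 0.05, mt-Nd1 (0.13 ± 0.05, adjusted p = 0.0597) and mt-Nd2 (0.13 ± 0.06, adjusted p = 0.14) were the 2 higher, and DESeq2 called 0 higher. Besides the 3 called and mt-Co2, those lower at that cut were mt-Nd5 (-0.19 ± 0.07, adjusted p = 0.0748) and mt-Cytb (-0.10 ± 0.05, adjusted p = 0.16). mt-Nd5 passed on leaving out library 6 or 11, each on its own. Of the 8 mRNAs tested, 2 were above 0 and 6 below. mt-Rnr2 was at 27738, 43415 and 55310 CPM in megakaryocyte/erythroid-gated cells, against 42349, 54196 and 67784 in stem-gated cells. It was lower in 14 of 14 libraries, with a log2 fold change of -0.35 ± 0.05 (adjusted p = 4.09e-07, edgeR), and with no filter on low counts -0.09 beside a median of 0.24. mt-Rnr1 had -0.22 ± 0.05 (adjusted p = 0.0026), was lower in 12 of 14 libraries, and was at 0.04 with no filter. mt-Co1 was at 1012, 1520 and 1714 CPM in megakaryocyte/erythroid-gated cells, against 1066, 1574 and 2130 CPM in stem-gated cells. Its log2 fold change was -0.27 ± 0.07 (adjusted p = 0.0046) with 10 of 14 libraries lower, and that of its partner Gm29216 was -0.26 ± 0.07 (adjusted p = 0.0084). mt-Co2 had -0.45 ± 0.16 (adjusted p = 0.0563) and passed on leaving out library 3, 6, 11 or 13, each on its own, with a lowest adjusted p of 0.0216. With the library block left out mt-Rnr2 kept its call (adjusted p = 0.0173), and mt-Rnr1 (adjusted p = 0.33) and mt-Co1 (adjusted p = 0.10) lost theirs. Within SB341 mt-Rnr1 and mt-Co1 each had an adjusted p of 0.0915.

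**Figure D5:**
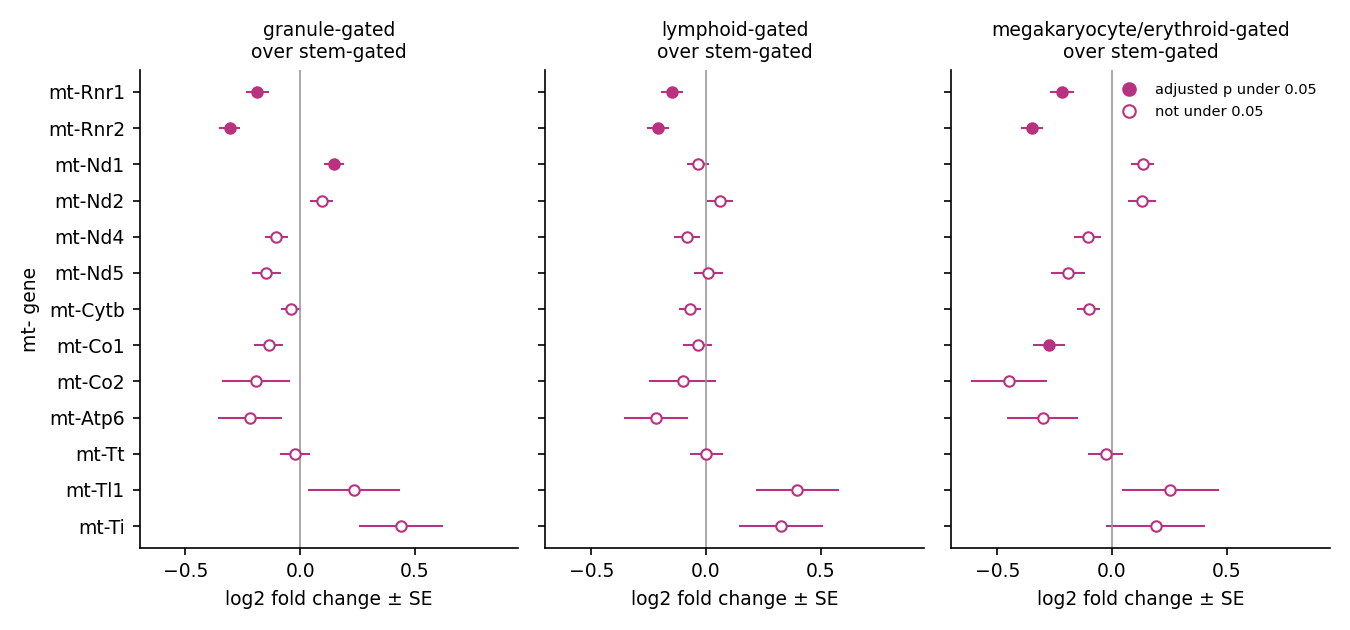
Log2 fold change ± SE (edgeR, 14 library pairs) of the 13 mt- genes tested in granule-, lymphoid- and megakaryocyte/erythroid-gated over stem-gated cells, with filled points for an adjusted p under 0.05. mt-Rnr2 is lowest among the filled points at -0.31, -0.21 and -0.35, values that with no filter on low counts become 0.21, 0.21 and -0.09.

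Gates compared at like depth kept the order of the ratio. Among cells of 1000 to 2000 UMIs, the rRNA to mRNA ratio had a median of 2.04 in granule-gated against 3.17 in stem-gated cells and was lower in 5 of 5 libraries. It was 2.68 in lymphoid-gated against 3.17 in stem-gated cells, lower in 6 of 7 libraries. It was 2.61 in megakaryocyte/erythroid-gated against 3.24 in stem-gated cells, lower in 4 of 4. In edgeR fits on these cells 0 members passed in any of the 3 comparisons, with 4, 0 and 1 higher and 1, 1 and 3 lower at an unadjusted p under 0.05. These fits tested 251 genes in the granule-gated and 284 in the lymphoid-gated comparison. The share of all genes at that unadjusted cut is not given, so these counts have no background beside them. Whether the 3 gates differ from each other was not tested. The tRNA share over all kept cells of a gate had medians of 0.229%, 0.233% and 0.225% in the granule-, lymphoid- and megakaryocyte/erythroid-gated cells, against 0.218% in stem-gated cells, and was higher in 12, 10 and 7 of 14 libraries.

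Nuclear genes of the respiratory chain and ATP synthase were measured beside the mt- mRNAs. The list held 94 genes picked by symbol (Nduf, Sdha to Sdhd, Uqcr, Cyc1, Cox4 to Cox8 and Atp5). It takes in complex II, which has no mt- subunit, and any assembly factor whose symbol starts alike. Of 61 tested in granule-gated cells 4 were higher and 0 lower, where 3.30% of all genes tested were higher, with a median log2 fold change of 0.11 beside -0.04 over all genes. Ndufb7, a complex I subunit, had 229 CPM in granule-gated and 143 CPM in stem-gated cells (medians) and rose by 0.76 ± 0.21 on the log2 scale (adjusted p = 0.0141), higher in 12 of 14 libraries. Ndufa4, now placed in complex IV, rose by 0.63 ± 0.17 (adjusted p = 0.0095), and Uqcr10, of complex III, by 0.58 ± 0.18 (adjusted p = 0.0284), which was lost without library 4, 9 or 10. The last, Atp5g1, a subunit c gene of ATP synthase named after its value was seen, rose by 0.56 ± 0.18 (adjusted p = 0.0338), a call lost without library 3, 4, 6, 8, 9 or 13. Of 41 tested in megakaryocyte/erythroid-gated cells 4 were higher and 0 lower, where 6.10% of all genes tested were higher, with a median of 0.17. These were Atp5g1 (0.78 ± 0.20, adjusted p = 0.0035), Uqcr10 (0.62 ± 0.20, adjusted p = 0.0235, lost without library 4), Atp5b (0.45 ± 0.11, adjusted p = 0.0030) and, named after its value was seen, Atp5g3 (0.35 ± 0.12, adjusted p = 0.0364), whose call was lost without library 4, 6, 7, 8, 9, 10, 12, 13 or 15. Atp5b encodes the catalytic beta subunit of ATP synthase. In lymphoid-gated cells 0 of 54 passed in either direction with edgeR or DESeq2, with a median of 0.01, and 1 was higher and 2 were lower at an unadjusted p under 0.05 with edgeR. Of these 4 and 4 named genes DESeq2 called 3 in granule-gated and 2 in megakaryocyte/erythroid-gated cells, and edgeR without the library block called 3 and 3. Of the 8 mt- mRNAs tested beside them, mt-Nd1 passed upward in granule-gated cells, where 6 of the 8 were below 0. In megakaryocyte/erythroid-gated cells its 0.13 ± 0.05 missed the threshold (adjusted p = 0.0597) but passed without TMM factors (adjusted p = 0.0083) or without library 9 (adjusted p = 0.0389), and the difference between these gates was not tested.

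Genes that make or process the mt- transcripts were too rare to test. None of 17 genes of mitochondrial DNA upkeep and transcription, 26 of RNA processing and stability and 6 regulators of biogenesis had enough counts in these sums. Of 78 mitochondrial ribosomal protein genes, 8, 5 and 3 were tested in the granule-, lymphoid- and megakaryocyte/erythroid-gated comparisons, and 0 passed with edgeR or DESeq2. At an unadjusted p under 0.05 with edgeR, 1, 0 and 1 of them were higher and 1, 1 and 0 lower, with no share of all genes beside it.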

How the data were processed

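MARS-seq libraries of LSK cells were made from 16 plates. The authors deposited UMI counts per gene and well, with bcl2fastq 2.15.0.4 and build mm10 named in the submitters' processing notes; aligner and counter are not given there. The rule for reads that match several places is likewise not given. The deposited well table lists empty wells and the sequencing batch for 15 libraries. It lacks library 1, whose empty wells could therefore not be left out.

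Counts were kept without spike-ins and gate genes entered sums but were not tested. Spike-ins, 92 gene entries, held 12 UMIs in kept wells, so no level per spike-in was computed. Wells with at least 500 UMIs and an mt- share under 20% were kept. UMIs were summed per library and gate where both gates held at least 10 cells. These sums were tested with edgeR 4.0.16 (R 4.3.3), quasi-likelihood, TMM factors, filterByExpr, library as a block, and Benjamini-Hochberg adjustment over all genes at 0.05. The fit was also run on simulated counts. These had no library effects and no gating by expression, so they do not show that the p-values here hold. CPM scales UMIs to the library total without spike-ins. DESeq2 1.42.0, other scalings, filters, gates and batches, and leaving out each library were alternatives. Both sums of a pair come from 1 plate, and their deviations from the gate means correlated at 0.132 to 0.712 in the pairs of the 3 comparisons, all over 0.1. The best correlated stem-gated sum was that of the same library in 8, 8 and 7 of 14 pairs (granule-, lymphoid- and megakaryocyte/erythroid-gated). Sequences were compared with blastn 2.17.0 on GENCODE M21. Named were every rRNA and mRNA, the 5 tRNAs with the most UMIs, and up to 3 passing genes with the largest change per nuclear list. The members and lists were chosen with earlier results of these data known. Counting intervals and floors cover counting error only. Counts at an unadjusted p under 0.05 are given without the share of all genes at that cut.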

Additional observations from a re-analysis of the deposited data

How the results depend on the processing

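The sums rest on 12 to 35 stem-gated cells per library, which limits the precision of each pair. The number of genes passing with edgeR was 101, 63 and 104 in the granule-, lymphoid- and megakaryocyte/erythroid-gated comparisons with stem-gated cells. Values below keep that order. With no replicate block it was 59, 38 and 67, with mt- genes higher in 0, 0 and 0 and lower in 1, 0 and 1, where the block gave 1, 0 and 0 higher and 2, 2 and 3 lower. With no filter on low counts 649 of 18486, 546 of 18187 and 165 of 17408 genes tested passed, where the filter left 1031, 941 and 689 to test. Without the filter 11, 11 and 2 mt- genes were higher and 0, 0 and 0 lower, and the TMM factors moved all genes upward. Signs that turned there with a call in either fit, on the log2 scale, were in granule-gated cells mt-Rnr1 0.33, mt-Rnr2 0.21, mt-Nd4 0.40, mt-Nd5 0.36, mt-Cytb 0.47, mt-Co1 0.37 and mt-Tt 0.49. They were in lymphoid-gated cells mt-Rnr1 0.27, mt-Rnr2 0.21, mt-Nd1 0.39, mt-Nd4 0.34, mt-Cytb 0.35 and mt-Co1 0.38, and in megakaryocyte/erythroid-gated cells mt-Rnr1 0.035. Signs that turned with no call in either fit were mt-Co2 0.30 and mt-Atp6 0.27 in granule-gated cells, mt-Co2 0.31 and mt-Atp6 0.19 in lymphoid-gated cells, and mt-Nd4 0.14, mt-Nd5 0.06, mt-Cytb 0.15 and mt-Tt 0.20 in megakaryocyte/erythroid-gated cells. With the TMM factors of the filtered genes, a choice made after the data were seen, the lymphoid-gated count was 134 of 18187 genes tested. Without TMM factors 3, 0 and 2 mt- genes were higher and 1, 1 and 3 lower. With scaling by all other genes 5 were lower in megakaryocyte/erythroid-gated cells.

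The cause of the moves in this paragraph was not tested. Within SB341 the megakaryocyte/erythroid-gated count was 59, with 1 mt- gene lower, and the granule-gated comparison had 0 mt- genes higher and 1 lower. Within SB343 the counts were 15, 13 and 19, with 0 mt- genes higher and 0, 0 and 2 lower. With a gate minimum of 3 UMIs they were 32, 24 and 25, with 0 mt- genes higher and 0, 0 and 1 lower, and the lymphoid-gated mt- share differed by -1.51 percentage points, against -0.56. In cells of 1000 to 2000 UMIs they were 8, 9 and 0, with 0 mt- genes higher and 0 lower, and the median log2 ratio of rRNA to mRNA differed by -0.50 in granule-gated cells. With a mt- maximum of 15%, 1 and 0 mt- genes were lower in granule- and lymphoid-gated cells. With no mt- maximum 6 were lower, and with at least 1000 UMIs 1 was higher, in megakaryocyte/erythroid-gated cells. These are counts and not shares, and the genes tested differed between fits. In the granule- and lymphoid-gated comparisons they numbered 980 and 1112 within SB341, 1514 and 563 within SB343, and 616 and 641 with a gate minimum of 3 UMIs. In cells of 1000 to 2000 UMIs they numbered 251 and 284, and with a mt- maximum of 15% they numbered 941 and 674.

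Leaving out each library gave 72 to 99, 46 to 66 and 86 to 117 genes, 0 to 1, 0 to 0 and 0 to 1 mt- genes higher, and 1 to 2, 1 to 2 and 3 to 6 lower. The genes tested in these fits numbered 933 to 1009, 767 to 955 and 608 to 731. In megakaryocyte/erythroid-gated cells 1 mt- gene was higher without library 9, and more were lower without library 3, 6, 11 or 13. Apart from the 2 values above, shares and ratios moved by less than their spread in the other 90 recomputed values and in all 180 that left out 1 library.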

Other observations

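Wells left out for a mt- share of 20% or more carried a different mix of mt- transcripts from kept cells. There were 86 such wells, 1 to 15 per library, with 28.8% of their 100114 UMIs in mt- entries. Their mt- UMIs were 83.5% rRNA and 15.3% mRNA, against 72.1% and 25.8% in kept cells. The ratio of rRNA to mRNA was higher than in the kept cells of the same library in 14 of 16 libraries, with medians of 5.07 and 2.84. Near the limit, 39 wells at 19% to 20% were kept and 21 wells at 20% to 21% were left out.

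The 841 wells under 500 UMIs that were not listed as empty had 19.5% of UMIs in mt- entries and a rRNA to mRNA ratio of 2.82, near the 2.79 of kept cells. Their ratio of mt-Rnr2 to mt-Rnr1 was 2.45, against 1.85 in kept cells. The 60 wells listed as empty held 801 UMIs in all, 83 of them mt-, with a rRNA to mRNA ratio of 1.48.

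Across gates the balance of the 2 rRNAs also differed. mt-Rnr2 per mt-Rnr1 had medians of 1.74, 1.78 and 1.79 in granule-, lymphoid- and megakaryocyte/erythroid-gated cells, against 1.94 in stem-gated cells, and each was lower in 11 of 14 libraries. Within libraries the median differences were -0.17 (SD 0.20), -0.04 (SD 0.13) and -0.14 (SD 0.21), so that of lymphoid-gated cells was small. The 3 values share their stem-gated cells and were not tested.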
